A study of Mus musculus with 15 samples.

Results

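Lung nodules grown from primed D2.A1 cells were set against lung nodules grown from primed D2.OR cells, which asks how a metastatic and a dormant line of one lineage differ once both have formed tumors. D2.A1 and D2.OR are mouse mammary cancer lines of the D2.HAN series, which arose in BALB/c mice. Primed (3D) cells had been grown on Cultrex, a reconstituted basement membrane extract, before they were injected into the tail vein of female BALB/c mice; unprimed (2D) cells came from plastic. The groups were chosen by the sample labels: 4 nodules of primed D2.A1 (2 labelled spindle and 2 labelled epithelial) against all 3 nodules of primed D2.OR (labelled spindle), 7 of the 15 nodules of the series. The other 8 nodules came from unprimed cells, 6 of D2.A1 (3 spindle, 3 epithelial) and 2 of D2.OR, and serve here as other samples of the same lines and, in the fit of all 15 nodules, in the estimate of the spread. Each nodule was cut by laser from a stained section of formalin-fixed, paraffin-embedded lung and measured on 1 Affymetrix Mouse Gene 2.0 ST array, so a nodule holds tumor cells together with whatever lung, blood and stromal cells lay in the cut. By the study's histology, spindle D2.A1 nodules lay at the pleura, epithelioid ones inside the lung, and primed D2.OR nodules in both places, so morphology and site cannot be told apart in D2.A1. The groups had 3 mice each and no label ties a nodule to a mouse, so at least 2 of the 4 primed D2.A1 nodules must come from one mouse, and all p-values below, which are over nodules, are too small to that extent.

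Cells that leave a breast tumor can reach the lung and then stay there without growing, a state called metastatic dormancy. Its end is thought to depend on growth control inside the cell, on contact with matrix such as collagen and fibronectin, and on host cells around it. Myc, a transcription factor that drives growth and metabolism, is a common point where such growth control is altered in mammary cancer.

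All values are log2 levels after Robust Multi-array Average (RMA), so a difference of 1 is 2-fold, and a gene near the median gene (mean 1.94) gave little signal. Over the 22180 genes, D2.OR 3D nodule 2 stood apart. It correlated at 0.901 and 0.883 with D2.OR 3D nodules 1 and 3, which correlated at 0.975 with each other, and among the 4 D2.A1 3D nodules the correlations lay between 0.940 and 0.968. The average of the muscle list (16 heart or skeletal muscle genes) was 1.99 to 2.10 in the D2.A1 3D nodules, against 2.23 in nodule 1, 3.93 in nodule 2 and 2.34 in nodule 3 of D2.OR 3D. The part of muscle in what sets nodule 2 apart was not tested. In 2 genes that set the unprimed lines apart, it was D2.OR 3D nodules 1 and 3 that lay with D2.A1. Kcnma1, a potassium channel, lay between 10.98 and 11.19 in the D2.A1 3D nodules, against 10.04, 5.20 and 10.45 in D2.OR 3D, and the unprimed nodules gave 10.96 to 11.42 in D2.A1 2D, against 2.82 and 2.40 in D2.OR 2D. Rhox5, a homeobox gene, lay between 6.24 and 6.85 in D2.A1 3D, against 5.49, 2.06 and 6.14 in D2.OR 3D, with 6.09 to 6.82 in D2.A1 2D, against 1.87 and 2.03 in D2.OR 2D. So nodule 2 was the primed D2.OR nodule nearest to unprimed D2.OR in these genes, in which nodules 1 and 3 went against their line label. The cause was not tested. Vim, vimentin of mesenchymal cells, lay between 9.80 and 9.93 in D2.A1 3D, against 9.35, 7.56 and 9.19 in D2.OR 3D, and the keratin Krt8 between 5.22 and 6.01 in D2.A1 3D, against 5.85, 3.64 and 5.57 in D2.OR 3D. The epithelial marker Epcam was near the median gene in all 7 nodules. Results are therefore given with D2.OR 3D nodule 2 and, where it matters, without it, and the counts also with nodule 2 as the only D2.OR 3D nodule.

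Few genes separated the lines. The higher ones in D2.A1 3D held a short stretch of neighbouring genes around Myc, and the lower ones held genes of fat, lymphoid, stromal and lung epithelial cells. With limma over all 15 arrays and Benjamini-Hochberg adjustment, 43 of 22180 genes (0.194%) were higher and 56 (0.252%) were lower in D2.A1 3D at an adjusted p under 0.05, 0.446% in all. Of these, 31 and 44 differed by more than 2-fold. The groups do not overlap over the 7 nodules for any of the 99 genes, which follows largely from calling them by these same differences. Of all genes 3.78% lay higher and 4.68% lower without overlap. At 2-fold and p under 0.05 without adjustment, 113 genes (0.509%) were above and 245 (1.1%) below. The study gives such thresholds for primed against unprimed D2.OR nodules. Whichever nodule was left out, 15 of the 43 and 17 of the 56 stayed called. Without D2.OR 3D nodule 2 the counts were 64 (0.289%) and 462 (2.08%), with 41 of the 43 and all 56 among them; without any other single nodule they were 18 to 47 and 20 to 39. With nodule 2 as the only D2.OR 3D nodule, which leans on the spread of the other groups, they were 332 (1.5%) and 267 (1.2%), with 29 of the 43 and 25 of the 56 among them. The counts also moved with the fit: 20 (0.0902%) and 28 (0.126%) in the 7 primed nodules alone (14 and 16 of them among the 43 and 56), 15 and 6 with same-numbered D2.A1 nodules averaged, 122 and 122 after cyclic loess, 221 and 731 with array weights, and 0 and 0 by a one-way test per gene (627 and 921 at an unadjusted p under 0.05). The plot of levels by nodule shows, for either direction, the 10 genes that differed most.

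**Figure D1:**
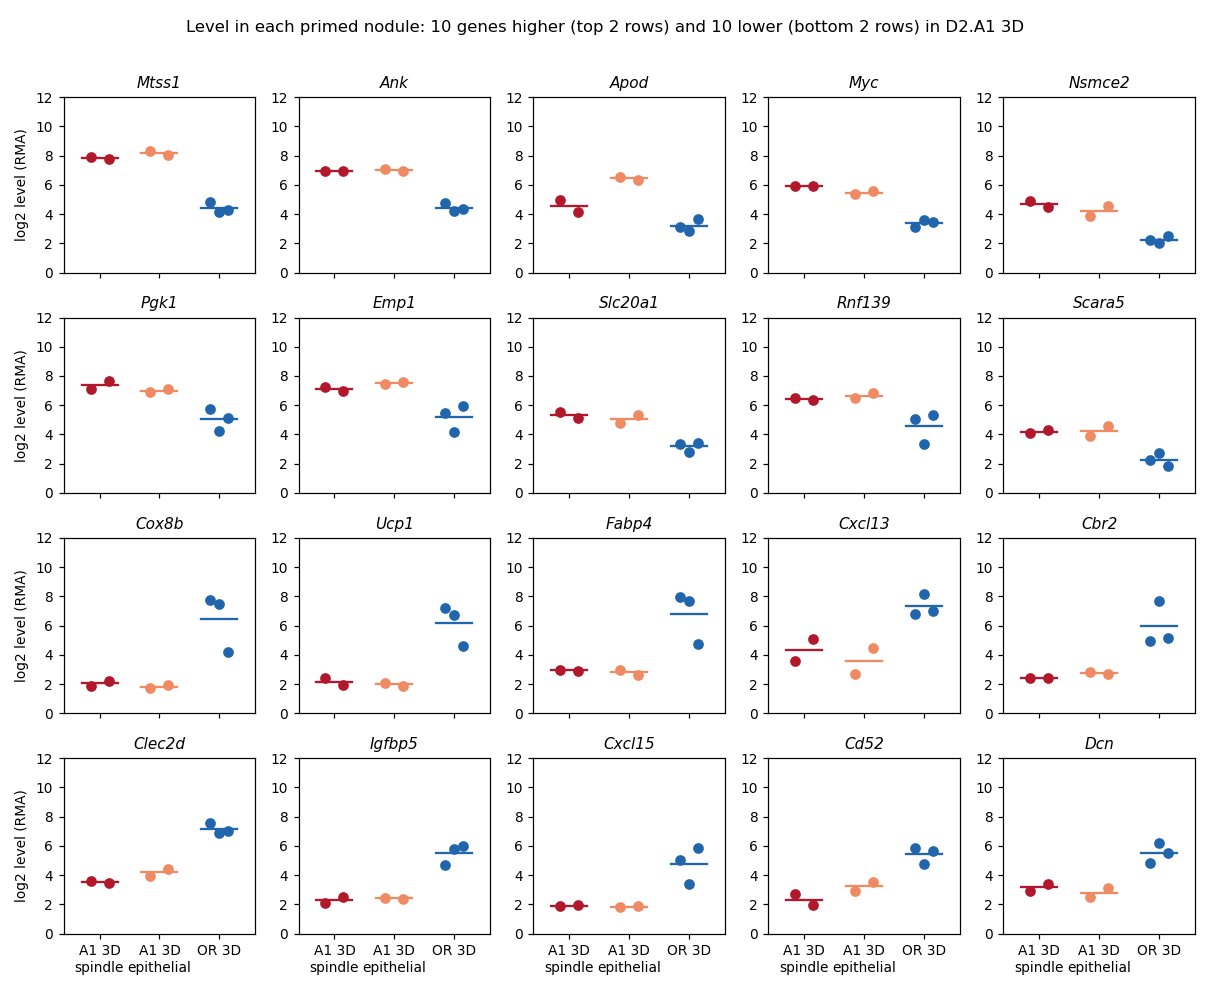
Log2 level (RMA, vertical axis) of 20 genes in each primed nodule, with D2.A1 3D spindle (dark red), D2.A1 3D epithelial (orange) and D2.OR 3D (blue); points are nodules and bars are group means. The 4 D2.A1 3D nodules lie above all D2.OR 3D nodules in the top 2 rows and below all of them in the bottom 2 rows, by 3.60 for Mtss1 and by 4.53 for Cox8b.

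The clearest difference was Mtss1, whose product binds actin and bends membranes at the cell edge. It lay at 7.91 and 7.76 in the spindle and 8.31 and 8.06 in the epithelial D2.A1 3D nodules, against 4.82, 4.12 and 4.28 in D2.OR 3D. The groups were far apart and the D2.OR nodules alike, with a difference of 3.60 (SE 0.195, adjusted p = 5.92e-06 from limma). Myc lay at 5.91, 5.94, 5.35 and 5.57 in D2.A1 3D, against 3.14, 3.62 and 3.45 in D2.OR 3D, a difference of 2.29 (SE 0.251, adjusted p = 0.00184). Nsmce2, a SUMO ligase that works in DNA repair, lay at 4.87, 4.47, 3.85 and 4.57 in D2.A1 3D, against 2.22, 2.00 and 2.48 in D2.OR 3D, a difference of 2.21 (SE 0.227, adjusted p = 0.00104). All 3 kept their call whichever nodule was left out and in each of 9 other limma fits of the same data, and all 3 lie close together on mouse chromosome 15.

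That stretch was looked at after these values were seen. In the RefSeq gene order of GRCm38.p6 it runs from Rnf139 to Pvt1 and holds 15 measured genes, of which 8 were higher in D2.A1 3D (background 0.194%). All 15 had a positive difference (50.6% of all genes did). Beside Mtss1, Myc and Nsmce2 these were Rnf139, a ubiquitin ligase of the endoplasmic reticulum, by 1.96 (adjusted p = 0.0439), and Washc5, a subunit of the WASH complex on endosomes, by 1.86 (adjusted p = 0.00659). The remaining 3 were Sqle, squalene epoxidase of cholesterol synthesis, by 1.59 (adjusted p = 0.0219), Trib1, a pseudokinase, by 0.96 (adjusted p = 0.00659), and Pvt1, a long noncoding RNA next to Myc, by 0.94 (adjusted p = 0.0366). Rnf139 lay at 6.53, 6.37, 6.48 and 6.82 in D2.A1 3D, against 5.07, 3.34 and 5.35 in D2.OR 3D, where nodule 2 was the lowest. Washc5 lay at 4.91, 5.02, 5.09 and 5.61 in D2.A1 3D, against 3.48, 2.73 and 3.69 in D2.OR 3D. Trib1, a weaker signal, lay at 4.10, 3.80, 3.64 and 3.92 in D2.A1 3D, against 2.95, 2.98 and 2.79 in D2.OR 3D. In all 3 genes the lowest D2.A1 3D nodule lay above the highest D2.OR 3D nodule. Washc5 and Trib1 passed whichever nodule was left out, while Rnf139 lost its call without any one D2.A1 3D nodule or D2.OR 3D nodule 1 (adjusted p up to 0.151). Sqle lost it without D2.A1 3D spindle nodule 1, epithelial nodule 2 or D2.OR 3D nodule 1 (adjusted p up to 0.0998), and Pvt1 without spindle nodule 1, either epithelial nodule or D2.OR 3D nodule 1 (adjusted p up to 0.151).

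The 7 genes of the stretch that did not pass were Tatdn1, Ndufb9, Zfp572, Gm19510, 4933412E24Rik, A1bg and D030024E09Rik. Ndufb9, a subunit of complex I, lay at 7.37, 7.04, 6.99 and 7.48 in D2.A1 3D, against 5.94, 5.13 and 5.24 in D2.OR 3D, with a difference of 1.78 and an adjusted p of 0.147. Gm19510, at 0.11, changed sign when D2.A1 3D spindle nodule 2 (-0.005) or D2.OR 3D nodule 3 (-0.053) was left out. The median difference over the 15 genes was 0.961, against 0.002 over all genes, and 10 of the 15 lay higher without overlap between the lines (3.78% of all genes did). Of the 15 measured genes just before Rnf139 and the 15 just after Pvt1, 0 were called on either side (background 0.194%), with medians of 0.309 and 0.088. Both ends of the stretch are called genes and were set with the values known. The 8 calls inside and the 0 beside it are therefore not a separate test. Between the unprimed lines Trmt12, the gene just before Rnf139, was called higher in D2.A1 (difference 0.952, adjusted p = 0.0027). Among 4959 runs of 15 successive genes with a mean level over 2.5, the run around Mtss1 had the highest median, the 20 highest runs all lay on chromosome 15, and on the other chromosomes the medians lay between -0.561 and 0.568. Neighbouring runs share most of their genes, so the 20 highest runs are not 20 separate places. The level was a mean over all 15 arrays, most of them D2.A1, so genes weak in D2.OR could pass. The stretch was found in these same differences, so its rank is not a separate test. Chromosome 15 held 10 of the 43 higher genes (1.19% of its 839 genes), and no other chromosome held more than 6. The count of 8 was 5 without D2.A1 3D spindle nodule 1, without epithelial nodule 2 or without D2.OR 3D nodule 1, and 8 without D2.OR 3D nodule 2; in a fit of the 7 primed nodules alone it was 3.

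**Figure D2:**
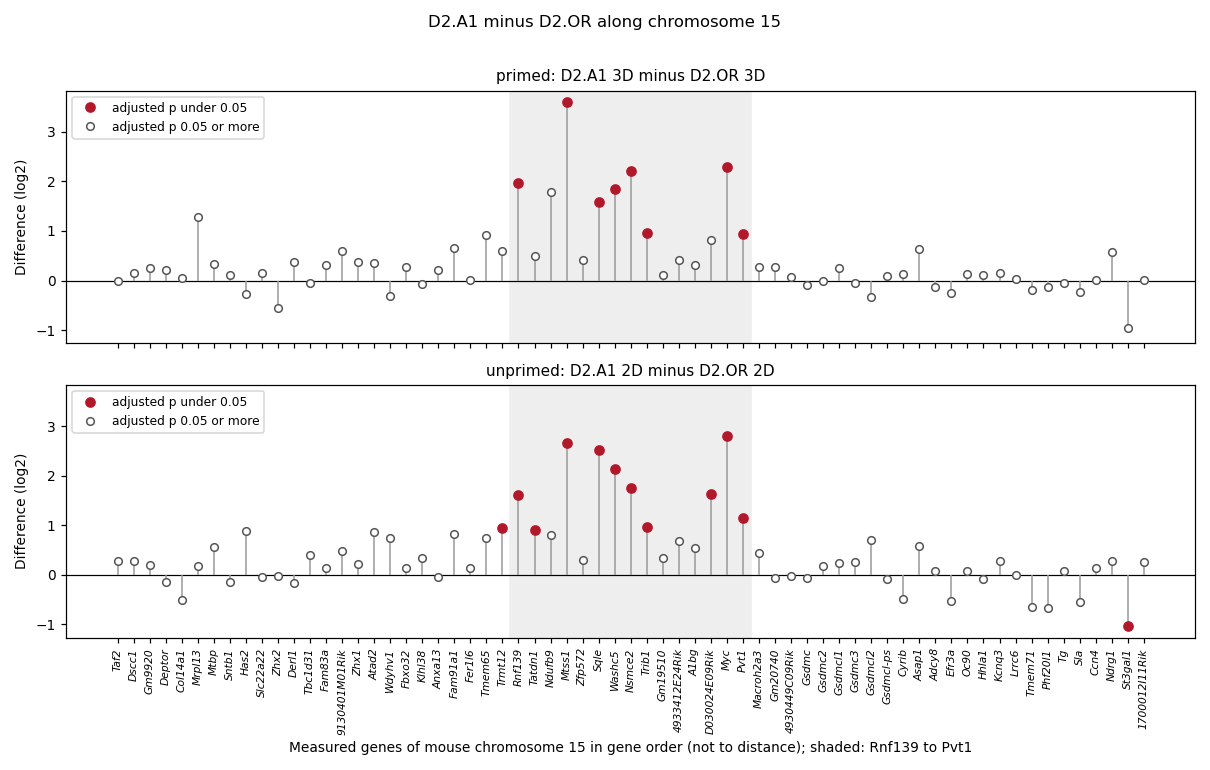
Difference D2.A1 minus D2.OR on the log2 scale (vertical axis) for successive measured genes of mouse chromosome 15 in gene order (horizontal axis, not to distance), in primed (top) and unprimed (bottom) nodules; filled points have an adjusted p under 0.05 and the shading marks Rnf139 to Pvt1. Within the shading 8 of 15 genes are called in primed and 10 of 15 in unprimed nodules, and all 15 lie above 0 in both.

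The unprimed nodules are other samples, which entered the fit above through the spread but not the differences. Between the unprimed lines, D2.A1 minus D2.OR, all 15 genes had a positive difference, 10 were called higher (background 0.996%), among them all 8 called in primed nodules, and the median was 1.14, against 0.028 over all genes. Myc averaged 6.06 in D2.A1 2D and 3.27 in D2.OR 2D, and Mtss1 averaged 7.15 in D2.A1 2D and 4.50 in D2.OR 2D. Fitted apart, the 7 primed nodules called 3 of the 15 genes higher (Mtss1, Myc and Nsmce2; background 0.0902%) and the 8 unprimed nodules called 10 (background 1.12%), those 3 among them. The line difference did not pass as different between primed and unprimed nodules for any of the 15 genes (lowest adjusted p of that test 0.355). In the unprimed nodules 4 runs of 15 genes had a higher median than the one around Mtss1, none of them on chromosome 15; the highest, 1.15, lay on chromosome 13 at the histone gene H4c9.

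Outside this stretch, Ank, which exports pyrophosphate from cells and also lies on chromosome 15, was also higher. It lay at 6.94, 6.92, 7.08 and 6.94 in D2.A1 3D, against 4.75, 4.24 and 4.34 in D2.OR 3D, a difference of 2.53 (SE 0.233, adjusted p = 0.000406). Apod, a lipid-binding lipocalin, lay at 4.98 and 4.14 in spindle and 6.57 and 6.31 in epithelial D2.A1 3D nodules, against 3.10, 2.83 and 3.69 in D2.OR 3D, with the epithelial nodules the highest and a difference of 2.29 (adjusted p = 0.000684). Slc20a1, a sodium-phosphate cotransporter, lay at 5.56, 5.10, 4.80 and 5.32 in D2.A1 3D, against 3.34, 2.83 and 3.44 in D2.OR 3D, a difference of 1.99 (adjusted p = 0.00285). Pold2, a subunit of DNA polymerase delta, was higher by 1.92 (adjusted p = 0.00805) and Ier3, an early response gene that acts on cell survival, by 1.73 (adjusted p = 0.00659). These 5 genes passed whichever nodule was left out. Thbs1, the matrix protein thrombospondin, was higher by 1.74 (adjusted p = 0.0149), Scara5, a ferritin receptor of stromal cells, by 1.93 (adjusted p = 0.0355), and Igfbp4, which binds insulin-like growth factors, by 1.68 (adjusted p = 0.0366). Each of the 3 lost the call when any nodule but D2.OR 3D nodule 2 was left out, with adjusted p up to 0.0769, 0.134 and 0.143. Emp1, a membrane protein of epithelial cells, lay at 7.25, 6.96, 7.42 and 7.62 in D2.A1 3D, against 5.50, 4.15 and 5.95 in D2.OR 3D. Its difference of 2.11 (adjusted p = 0.0256) lost the call without any one D2.A1 3D nodule or D2.OR 3D nodule 1 (adjusted p up to 0.108).

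Because Myc binds the sequence CACGTG, called an E-box, the promoters of the higher genes were read for it; the motif is the same on both strands, and it is also bound by other factors, among them those of the circadian clock. RefSeq promoters of GRCm38.p6, taken as the 250 bases before the start of the gene, were at hand for 24 of the 43 higher genes, 32 of the 56 lower genes and 16990 of the genes tested. They were at hand for 0 of the 8 called genes from Rnf139 to Pvt1. Whether each recorded start is the one used in these nodules was not tested. CACGTG stood in 5 of the 24 (20.8%; Ctsl, Nmd3, Per1, Rgl1 and Slc20a1), in 1 of the 32 (3.12%; Cd37) and in 1330 of the 16990 (7.83%). Slc20a1 is shown because it holds the motif at 2 places and is among the genes with the largest difference, and Per1, a clock gene chosen after its values were seen (higher by 1.61, adjusted p = 0.0114), as a gene with 1 motif. Both run 5′ to 3′ along the plus strand up to the base before the start, chr2:129198523-129198772 for Slc20a1 and chr11:69098699-69098948 for Per1, with the motif in capitals.
Slc20a1: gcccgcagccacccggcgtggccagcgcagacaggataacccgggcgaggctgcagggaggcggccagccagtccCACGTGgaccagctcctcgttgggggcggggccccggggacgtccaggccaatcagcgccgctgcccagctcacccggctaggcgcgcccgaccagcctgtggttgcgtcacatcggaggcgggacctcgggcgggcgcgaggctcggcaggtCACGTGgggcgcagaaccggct
Per1: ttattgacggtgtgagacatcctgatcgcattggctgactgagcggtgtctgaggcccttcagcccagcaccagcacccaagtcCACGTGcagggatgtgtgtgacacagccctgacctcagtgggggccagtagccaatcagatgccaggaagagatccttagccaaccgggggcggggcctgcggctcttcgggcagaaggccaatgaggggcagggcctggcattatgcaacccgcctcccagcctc
A match of these letters says nothing of whether a factor sits there in these nodules.

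Few genes of metabolism passed between the primed lines. Of 19 genes of glycolysis and of glucose or lactate transport 1 was higher and 0 lower (median difference 0.228), and of 21 genes of the hypoxia response 2 were higher and 0 lower (median 0.553), beside 0.194% higher and a median of 0.002 over all genes. The glycolytic gene was Pgk1, phosphoglycerate kinase, which makes ATP and is also on the hypoxia list: it lay at 7.12, 7.66, 6.88 and 7.11 in D2.A1 3D, against 5.74, 4.24 and 5.11 in D2.OR 3D, a difference of 2.16 (SE 0.338, adjusted p = 0.016). Pgk1 lost the call without D2.A1 3D spindle nodule 2, either epithelial nodule or D2.OR 3D nodule 3 (adjusted p up to 0.08). The other hypoxia gene was Kdm3a, a histone demethylase, higher by 0.67 (adjusted p = 0.0345) at a weak signal, and its call was lost without any one D2.A1 3D nodule or D2.OR 3D nodule 3 (adjusted p up to 0.135). Of 24 citrate cycle genes, 38 genes of the respiratory chain, 23 of fatty acid oxidation and 40 of the cell cycle, 0 were called in either direction (background 0.446%). At that share, 0 calls in lists of this size cannot show that these genes were alike in the lines. Their median differences were -0.249, -0.257, -0.44 and 0.215, in that order.

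Pfkfb3, which makes the activator of phosphofructokinase and is the enzyme the study follows, did not pass between the primed lines. It lay at 2.20, 2.63, 2.51 and 3.42 in D2.A1 3D, against 3.56, 3.15 and 2.83 in D2.OR 3D, with a difference of -0.49 (SE 0.218, adjusted p = 0.462), and the groups overlap. In the unprimed nodules it averaged 2.66 in D2.A1 2D and 5.63 in D2.OR 2D, a difference of -2.97 (adjusted p = 5.06e-05). The D2.OR 2D nodules were also high in the 15 adipocyte genes, with list means of 1.81 to 1.94 in D2.A1 2D, against 7.04 and 3.94 in D2.OR 2D; the part of fat cells in the Pfkfb3 values was not tested. The line difference itself was not the same in primed and unprimed nodules (difference of differences 2.47, SE 0.319, adjusted p = 0.0188). Of 9 measured phosphofructokinase and fructose bisphosphate enzymes 0 passed in primed nodules (background 0.194% higher and 0.252% lower). Of 35 autophagy genes 1 was lower and 0 higher (same background; median -0.093). This was Tfeb, the transcription factor of lysosome genes, lower by 0.52 (adjusted p = 0.0359), at 1.74, 1.72, 1.85 and 1.78 in D2.A1 3D, against 2.26, 2.19 and 2.45 in D2.OR 3D, all near the median gene. Its call was lost without any nodule but D2.OR 3D nodule 2 (adjusted p up to 0.138). Among the autophagy genes the study names, Sqstm1, the cargo receptor p62, had a difference of 0.82 (adjusted p = 0.202), Atg3 of -0.41 (adjusted p = 0.722), Atg7 of -0.17 (adjusted p = 0.723) and Rb1cc1 of 0.11 (adjusted p = 0.767). Map1lc3b, the coat protein of autophagosomes, lay at 2.66 and 3.19 in spindle and 4.14 and 5.18 in epithelial D2.A1 3D nodules, against 3.88, 3.45 and 4.39 in D2.OR 3D. Its difference of -0.11 (adjusted p = 0.94) turned positive without D2.A1 3D spindle nodule 1, without epithelial nodule 1 or without D2.OR 3D nodule 3 (0.022, 0.15 and 0.129).

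Among the 56 lower genes, 13 (23.2%) were on one of the 14 cell type marker lists and 16 (28.6%) on a marker or immune list, beside 0.857% and 1.19% of the genes tested and 1 of the 43 higher genes; the lists were chosen with earlier results of these arrays known. In a bulk nodule, fewer cells of a type and less RNA per cell cannot be told apart. The marker list plot gives the mean of each list in each nodule.

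**Figure D3:**
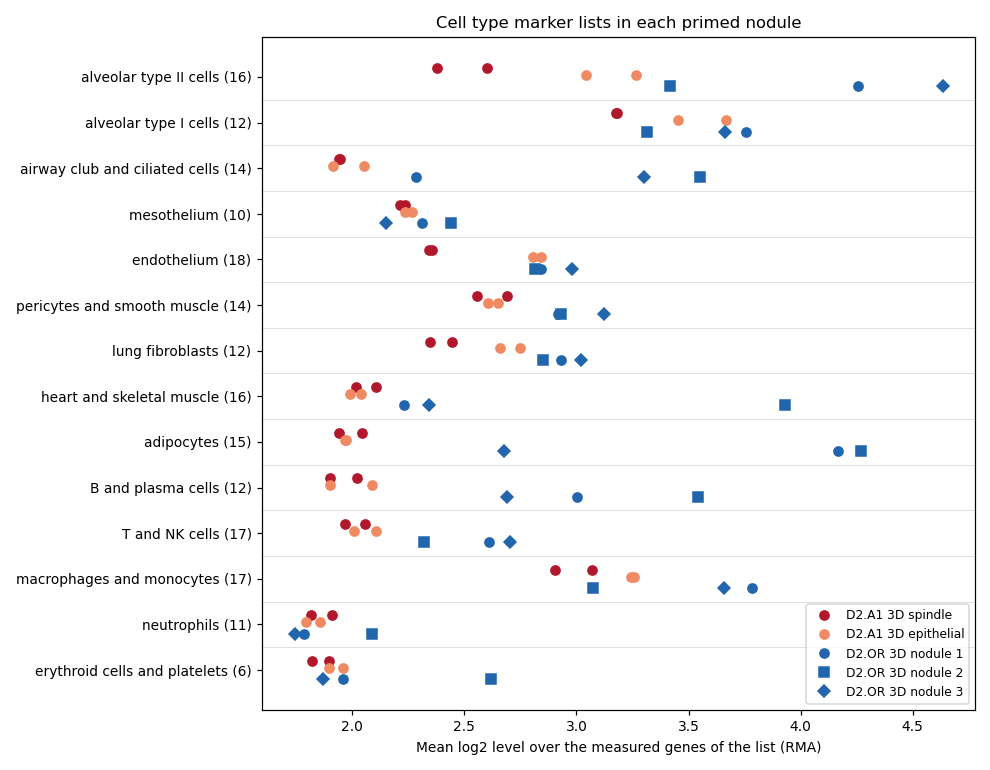
Mean log2 level (RMA, horizontal axis) of each cell type marker list (rows, with the number of measured genes) in each primed nodule, with D2.A1 3D spindle in dark red, D2.A1 3D epithelial in orange and D2.OR 3D in blue, with a symbol for each nodule. Adipocyte, B cell, T cell, alveolar type II, airway, pericyte, lung fibroblast and muscle lists lie higher in all 3 D2.OR 3D nodules than in any D2.A1 3D nodule. The muscle list is by far the highest in D2.OR 3D nodule 2 (3.93).

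Among named lower genes that passed, those of fat cells had some of the largest differences. Fabp4, which carries fatty acids in adipocytes, lay at 2.99, 2.90, 2.99 and 2.65 in D2.A1 3D, against 7.94, 7.66 and 4.75 in D2.OR 3D. Ucp1, the uncoupling protein of brown fat, lay at 2.38, 1.93, 2.09 and 1.86 in D2.A1 3D, against 7.24, 6.71 and 4.59 in D2.OR 3D. Cox8b, a cytochrome c oxidase subunit of brown fat and muscle, lay at 1.89, 2.21, 1.71 and 1.92 in D2.A1 3D, against 7.77, 7.46 and 4.17 in D2.OR 3D. D2.OR 3D nodules 1 and 2 were high and nodule 3 lay between them and the D2.A1 3D nodules. The differences were -3.91, -4.11 and -4.53 (adjusted p = 0.0422, 0.0309 and 0.0345), and each lost its call without any one D2.A1 3D nodule or D2.OR 3D nodule 1 (adjusted p up to 0.161, 0.132 and 0.139). Of 15 measured adipocyte genes these 3 were lower and 0 higher (background 0.252%). All 15 had a negative difference (50.6% of all genes had a positive one), and the median was -1.325. The list mean lay between 1.94 and 2.04 in the D2.A1 3D nodules, against 4.17, 4.27 and 2.68 in D2.OR 3D. Adipoq, a defining hormone of fat cells, lay between 1.61 and 1.91 in D2.A1 3D, against 2.84, 3.19 and 1.63 in D2.OR 3D. The part of fat cells in these differences was not tested.

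Several genes of lymphoid and other blood cells were lower as well. Cxcl13, the chemokine that draws B cells, lay at 3.58, 5.10, 2.69 and 4.46 in D2.A1 3D, against 6.77, 8.18 and 7.004 in D2.OR 3D, a difference of -3.36 (SE 0.464, adjusted p = 0.00797). Ltb, lymphotoxin beta of lymphocytes, lay at 2.01, 2.29, 2.35 and 2.75 in D2.A1 3D, against 4.84, 4.42 and 5.10 in D2.OR 3D, a difference of -2.44 (SE 0.222, adjusted p = 0.000406). Clec2d, a lectin that binds a receptor of natural killer cells, lay at 3.59, 3.46, 3.93 and 4.44 in D2.A1 3D, against 7.55, 6.88 and 7.05 in D2.OR 3D, a difference of -3.30 (SE 0.29, adjusted p = 0.000368). In each of the 3 genes every D2.OR 3D nodule lay above every D2.A1 3D nodule, with the widest spread within D2.A1 3D in Cxcl13, and the call held whichever nodule was left out. The leukocyte genes Cd52, a surface glycoprotein, and Rac2, a GTPase of blood cells, were lower by 2.66 (adjusted p = 0.00774) and 2.18 (adjusted p = 0.00246), also whichever nodule was left out. Ptprc, the pan-leukocyte antigen CD45, lay at 2.05, 1.86, 2.12 and 2.45 in D2.A1 3D, near the median gene, against 4.92, 3.69 and 4.76 in D2.OR 3D. Its difference of -2.34 (adjusted p = 0.0366) lost its call without any nodule but D2.OR 3D nodule 2 (adjusted p up to 0.148).

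Of 12 genes of B and plasma cells 3 were lower and 0 higher (background 0.252%). All 12 had a negative difference (50.6% of all genes had a positive one), with a median of -0.99. Cd79a, part of the B cell receptor, lay at 2.00, 1.68, 2.09 and 2.14 in D2.A1 3D, against 4.50, 4.52 and 3.24 in D2.OR 3D (difference -2.11, adjusted p = 0.00829). Pou2af1, a B cell coactivator, lay at 2.41, 2.42, 2.08 and 2.30 in D2.A1 3D, against 4.87, 4.33 and 4.21 in D2.OR 3D (difference -2.17, adjusted p = 0.00217). Both passed whichever nodule was left out, while Cd22, an inhibitory receptor of B cells (difference -1.46, adjusted p = 0.0412), lost its call without any nodule but D2.OR 3D nodule 2 (adjusted p up to 0.151). The list mean lay between 1.90 and 2.09 in D2.A1 3D, against 3.00, 3.54 and 2.69 in D2.OR 3D. Jchain, a plasma cell gene, lay at 1.88, 2.18, 1.63 and 2.80 in D2.A1 3D, against 2.30, 4.68 and 2.54 in D2.OR 3D. None of 17 T and NK cell genes passed, all with a negative difference (median -0.38), and the list mean was 1.97 to 2.11 in D2.A1 3D, against 2.61, 2.32 and 2.70 in D2.OR 3D. The MHC class II list, 10 genes that present antigen, had 2 lower members, H2-Aa by 1.07 (adjusted p = 0.0439) and H2-DMb2 by 1.24 (adjusted p = 0.0345). H2-Aa lay at 1.85 and 1.73 in spindle and 3.08 and 3.27 in epithelial D2.A1 3D nodules, against 3.83, 3.29 and 3.54 in D2.OR 3D. Both genes lost their call without any nodule but D2.OR 3D nodule 2 (adjusted p up to 0.171 and 0.141). Of 17 genes of macrophages and monocytes 1 was lower, Adgre1, an adhesion receptor of macrophages, by 1.06 (adjusted p = 0.0359), with the same limit (adjusted p up to 0.147). The part of blood cells in these differences was not tested.

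Stromal genes were called in both directions. Igfbp5, which binds insulin-like growth factors in the matrix, lay at 2.12, 2.50, 2.45 and 2.36 in D2.A1 3D, against 4.71, 5.78 and 5.96 in D2.OR 3D, a difference of -3.12 (SE 0.277, adjusted p = 0.000368), whereas Igfbp4 was among the higher genes. Dcn, the collagen-binding proteoglycan decorin, lay at 2.95, 3.38, 2.50 and 3.13 in D2.A1 3D, against 4.85, 6.21 and 5.53 in D2.OR 3D (difference -2.54, adjusted p = 0.00186). Both passed whichever nodule was left out. Of 12 lung fibroblast genes 2 were lower, Inmt, a methyltransferase of lung fibroblasts, by 2.14 (SE 0.182, adjusted p = 0.000368) and Dpt, the matrix protein dermatopontin, by 1.31 (SE 0.113, adjusted p = 0.000368), and Scara5 was higher (background 0.252% lower and 0.194% higher). Inmt lay at 2.43, 2.55, 2.89 and 2.87 in D2.A1 3D, against 4.72, 4.88 and 4.88 in D2.OR 3D, and Dpt at 2.10, 2.17, 2.12 and 2.03 in D2.A1 3D, against 3.42, 3.57 and 3.26 in D2.OR 3D. The D2.OR 3D nodules agree closely in both genes, nodule 2 included. The fibroblast list mean lay between 2.35 and 2.75 in D2.A1 3D, against 2.93, 2.85 and 3.02 in D2.OR 3D, and its part in these differences was not tested.

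Gas6, a ligand of the receptors Axl, Mertk and Tyro3 that has been tied to tumor dormancy in bone, was the only one of 25 genes of TGF-beta, BMP and Gas6 signals that passed (background 0.252% lower). It lay at 2.58, 3.26, 2.54 and 3.32 in D2.A1 3D, against 4.37, 4.92 and 4.60 in D2.OR 3D (difference -1.71, SE 0.245, adjusted p = 0.00932; adjusted p up to 0.0468 with any nodule left out). Its receptors did not pass (Axl -0.31, adjusted p = 0.768; Mertk 0.26, adjusted p = 0.45; Tyro3 -0.07, adjusted p = 0.925). Acta2, actin of smooth muscle and myofibroblasts, was lower by 1.49 (adjusted p = 0.042), and of 27 collagen chains Col5a3 alone, by 1.15 (adjusted p = 0.0141). Acta2 lost its call without any nodule but D2.A1 3D spindle nodule 1 or D2.OR 3D nodule 2 (adjusted p up to 0.148), and Col5a3 lost its call without D2.A1 3D spindle nodule 1 or epithelial nodule 2 (adjusted p up to 0.0752). Without D2.OR 3D nodule 2, 7 of the 27 collagen chains and 8 of 32 other matrix genes were lower (background 2.08%), among them Col1a1 and Postn, periostin. Postn lay at 3.11, 2.35, 2.99 and 3.35 in D2.A1 3D, against 5.96, 2.42 and 7.58 in D2.OR 3D, so nodule 2 lay with D2.A1 in this gene.

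Most lung epithelial genes had a negative difference that did not pass. Of 16 alveolar type II genes, which make surfactant, all 16 had a negative difference (median -0.97), while 50.6% of all genes had a positive one. Of the 16 genes 2 were lower (background 0.252%). They were Napsa, a protease that processes surfactant protein, by 1.53 (SE 0.176, adjusted p = 0.00231), and Cxcl15, a chemokine of lung epithelium, by 2.90 (SE 0.458, adjusted p = 0.0169). Napsa lay at 2.53 and 2.13 in spindle and 2.86 and 3.35 in epithelial D2.A1 3D nodules, against 4.15, 4.23 and 4.35 in D2.OR 3D, and passed whichever nodule was left out. Cxcl15 lay at 1.87, 1.95, 1.79 and 1.86 in D2.A1 3D, near the median gene, against 5.05, 3.42 and 5.83 in D2.OR 3D, and lost its call without D2.A1 3D spindle nodule 1, either epithelial nodule or D2.OR 3D nodule 1 (adjusted p up to 0.0912). Without D2.OR 3D nodule 2, 10 of the 16 genes were lower (background 2.08%). The list mean lay at 2.38, 2.60, 3.04 and 3.26 in D2.A1 3D, against 4.26, 3.42 and 4.63 in D2.OR 3D, the spindle nodules being the lowest. Of 14 airway genes 0 passed, and their mean was 1.91 to 2.05 in D2.A1 3D, against 2.28, 3.55 and 3.30 in D2.OR 3D. Among them 13 had a negative and 1 a positive difference. Scgb1a1, a gene of this list, lay at 2.09, 1.73, 3.31 and 1.53 in D2.A1 3D, against 5.97, 10.75 and 7.91 in D2.OR 3D. Its difference of -6.05 (SE 1.247) did not pass (adjusted p = 0.0658 from limma).

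Cbr2, a carbonyl reductase of airway club cells, followed the airway list: it lay at 2.43, 2.44, 2.80 and 2.69 in D2.A1 3D, against 4.95, 7.68 and 5.18 in D2.OR 3D, with nodule 2 the highest (difference -3.35, adjusted p = 0.0108). It lost its call without D2.A1 3D spindle nodule 1 or either epithelial nodule (adjusted p up to 0.0555). Retnla, a resistin-like protein of airway epithelium and macrophages, was lower by 2.22 (adjusted p = 0.00797) whichever nodule was left out. Cd24a, a surface glycoprotein used to sort mammary stem cells, lay at 3.10 and 3.22 in spindle and 4.61 and 5.06 in epithelial D2.A1 3D nodules, against 6.60, 5.43 and 7.10 in D2.OR 3D (difference -2.38, adjusted p = 0.0459), and its call was lost without any nodule but D2.OR 3D nodule 2 (adjusted p up to 0.175). With Myc, which is on the same list, Cd24a made 1 higher and 1 lower of 17 stem cell markers (background 0.194% higher and 0.252% lower). The part of lung epithelium in these differences was not tested.

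Calls among genes of the interferon response depended on D2.OR 3D nodule 2. With it, 0 of 26 were called (22180 genes tested, 0.252% lower), although all 26 had a negative difference (median -0.61). Of all genes 50.6% had a positive difference. Without it, 12 of the 26 were lower (background 2.08%), and so were 11 of 28 chemokine ligands. Cxcl10, a chemokine induced by interferon, lay at 2.22, 2.44, 2.65 and 2.34 in D2.A1 3D, against 5.25, 2.25 and 4.74 in D2.OR 3D, with an adjusted p of 0.246 over all nodules and of 0.000129 without nodule 2. The list mean was 2.37, 2.39, 2.53 and 2.61 in D2.A1 3D, against 3.745, 2.28 and 3.66 in D2.OR 3D, so nodule 2 was the lowest of the 7 nodules here. Kcnma1 was another such gene, with a difference of 2.54 and an adjusted p of 0.327 over all nodules and 0.0147 without nodule 2.

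Spindle D2.A1 3D nodules alone, which carry the histology label of the D2.OR 3D nodules, gave a shorter list. With these, 23 genes (0.104%) were higher and 38 (0.171%) lower than in D2.OR 3D, and 131 (0.591%) and 344 (1.55%) passed at 2-fold and an unadjusted p under 0.05; this comparison shares the D2.OR 3D nodules and the spindle nodules with the one above. Of the genes found with all D2.A1 3D nodules, 17 of 43 (39.5% of the longer and 73.9% of the shorter list) were also higher and 36 of 56 (64.3% and 94.7%) also lower with spindle nodules alone. The 26 higher and 20 lower genes that were not called had an unadjusted limma p under 0.05 in the same direction. Over all genes 4.56% and 6.29% had such a p with spindle nodules alone. The adjusted p of these genes ran from 0.0505 to 0.266 and from 0.0505 to 0.271. Their sign and the lack of overlap of spindle with D2.OR nodules follow from the choice of genes. No gene of the longer lists overlaps between all D2.A1 3D and D2.OR 3D nodules, so neither is a separate result. Mtss1 (3.43, adjusted p = 8.58e-05), Myc (2.52, adjusted p = 0.00401), Nsmce2 (2.43), Ank (2.48), Slc20a1 (2.12), Ier3 (2.13), Sqle (2.23) and Pgk1 (2.36) stayed higher. In the same comparison Clec2d (-3.63, adjusted p = 0.00134), Igfbp5 (-3.17), Cbr2 (-3.50), Cd24a (-3.21), Cd52 (-3.12), Rac2 (-2.68), Ltb (-2.64), Dcn (-2.37), Retnla (-2.31) and Inmt (-2.34) stayed lower. Of these 18 genes, Mtss1, Ank, Clec2d, Igfbp5, Ltb and Inmt passed it whichever nodule was left out. Each of the other 12 lost its call without at least 1 nodule (adjusted p up to 0.164). Of the 15 genes around Myc, 6 were called with spindle and 5 with epithelial nodules alone, against 8 with both.

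Genes named for the spindle comparison and not among the largest with all nodules were few. Ndufa4l2, a mitochondrial protein induced by low oxygen, lay at 5.11 and 5.20 in spindle D2.A1 3D nodules, against 2.99, 3.00 and 2.74 in D2.OR 3D (difference 2.25, adjusted p = 0.0158), and at 3.31 and 3.83 in epithelial nodules. Slc36a4, an amino acid transporter, lay at 4.67 and 3.73 in spindle nodules, against 2.24, 1.89 and 2.42 in D2.OR 3D (difference 2.01, adjusted p = 0.0236), with 2.43 and 3.21 in epithelial nodules. With spindle nodules alone, Ndufa4l2 lost its call without either spindle nodule or D2.OR 3D nodule 1, and Slc36a4 without spindle nodule 1 or D2.OR 3D nodule 1 (adjusted p up to 0.111 and 0.168). Without single nodules the spindle counts ran from 8 to 88 higher and from 8 to 501 lower, the largest without D2.OR 3D nodule 2. Epithelial nodules alone gave 31 higher (0.14%) and 14 lower (0.0631%) genes, of which 20 and 14 were also found with all nodules; without D2.OR 3D nodule 2 they gave 45 and 168.

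**Figure D4:**
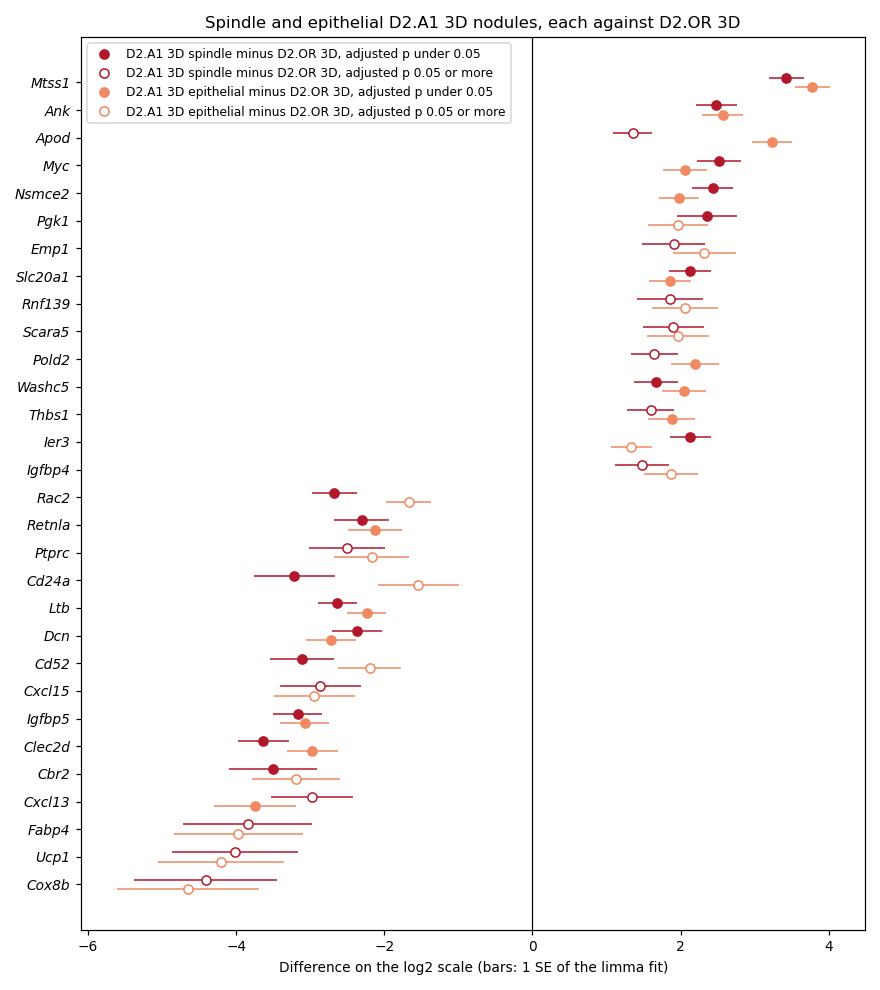
Difference on the log2 scale (horizontal axis, bars of 1 SE from limma) of spindle (dark red) and epithelial (orange) D2.A1 3D nodules, each against the same 3 D2.OR 3D nodules, for the 15 called genes that differed most in either direction; filled points have an adjusted p under 0.05. The 30 genes were chosen with no overlap between the D2.A1 3D and D2.OR 3D nodules, so that choice fixes their side of 0 in both. Of them 17 are filled for spindle and 15 for epithelial nodules.

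The test of spindle against epithelial D2.A1 3D nodules, in which D2.OR cancels, called 0 genes by limma, although 696 (3.14%) had an unadjusted p under 0.05 with a higher and 887 (4%) with a lower level in spindle nodules. So the spindle and the epithelial list are not shown to differ beyond the spread of 2 nodules each. Gene models, small RNA and receptor genes aside, the genes below had the largest differences among those with an unadjusted limma p under 0.01. Higher in spindle nodules, without passing, were Btbd35f1 (2.83), Speer4cos (2.36), H2-Q10 (1.97), Obox3 (1.88) and Speer4c (1.82). Most of these are genes of families with near-identical copies that a probe set may not separate. Lower, without passing, were Serping1 (-2.12), Sftpb (-2.09), Apod (-1.88), Sparcl1 (-1.85) and Map1lc3b (-1.74). Serping1, the inhibitor of the first complement enzyme, lay at 1.92 and 2.64 in spindle and 4.11 and 4.69 in epithelial nodules (adjusted p = 0.413). Sftpb, a surfactant protein, lay at 3.11 and 3.61 in spindle and 5.27 and 5.64 in epithelial nodules (adjusted p = 0.505).

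Most of the 99 genes differed in the same direction between the unprimed lines, whose nodules entered the primed comparison only through the spread. Of the 43 higher genes 41 had the same sign and 24 (55.8%) were also higher in D2.A1 2D (background 0.996%); of the 56 lower genes 49 had the same sign and 35 (62.5%) were also lower (background 3.2%). No gene was called the opposite way. With no array shared, the 7 primed nodules alone called 20 genes higher and 28 lower; of these, 12 and 17 were also called, in the same direction, in the 8 unprimed nodules alone (background 1.12% higher and 2.11% lower). Some of the genes that lacked the call without priming were those of lung epithelium: Cxcl15 averaged 2.50 in D2.A1 2D and 1.61 in D2.OR 2D, Cbr2 averaged 2.89 in D2.A1 2D and 2.75 in D2.OR 2D, and Napsa averaged 3.13 in D2.A1 2D and 3.49 in D2.OR 2D. The line difference itself differed between primed and unprimed nodules for 21 of 22180 genes (0.0947%), among them 0 of the 43 and 2 of the 56. These were Inmt (adjusted p = 0.0223), which averaged 2.84 in D2.A1 2D and 3.07 in D2.OR 2D, and Ankrd1, a muscle and stress gene chosen after its values were seen (adjusted p = 0.0455), which averaged 2.28 in D2.A1 2D and 2.10 in D2.OR 2D. The count of 24 was 12 to 37, and that of 35 was 14 to 115, when single primed nodules were left out, the highest without D2.OR 3D nodule 2.

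**Figure D5:**
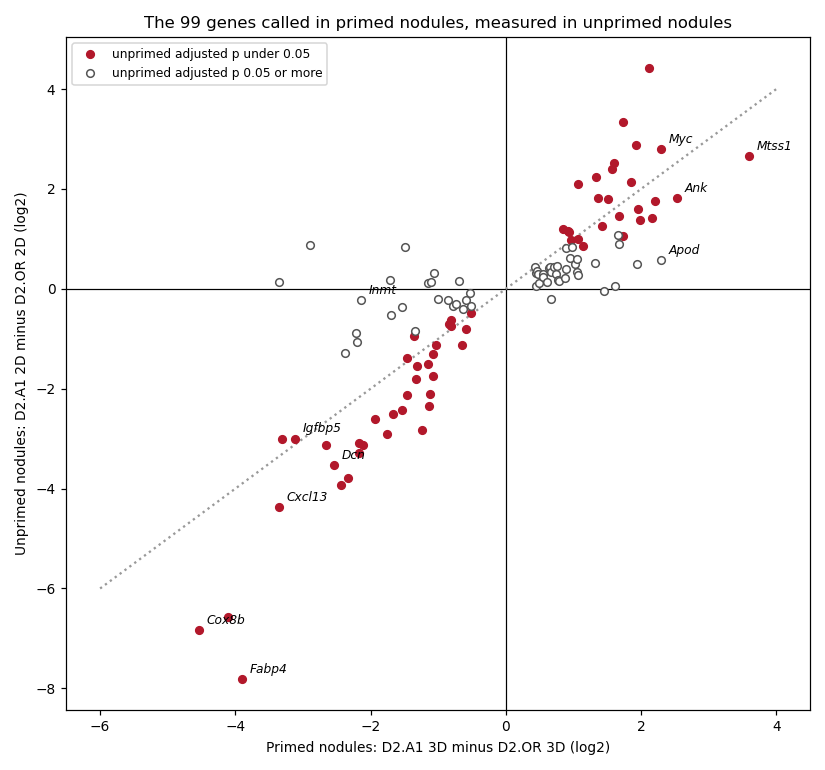
Difference D2.A1 minus D2.OR on the log2 scale in primed (horizontal axis) and unprimed nodules (vertical axis) for the 99 genes called in primed nodules; filled points also have an adjusted p under 0.05 in unprimed nodules and the dotted line marks equal differences. Of the 99 genes 59 are filled, each on the same side of 0 in both, and Inmt lies near 0 on the vertical axis.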

How the data were processed

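The deposited values were log2 levels that the authors made with RMA in Affymetrix Expression Console from RNA of laser-captured, fixed lung nodules, 1 Mouse Gene 2.0 ST array each; software versions: not given in the sources used here. That the scale has base 2 follows from RMA and is not written in the table. RMA fits all arrays together, so arrays share 1 scale and weak genes are compressed near the floor. Array medians lay between 1.81 and 1.91, and precision rests on the number of arrays.

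Of 41345 transcript clusters, 23521 had 1 gene symbol in the platform annotation, 1820 several and 16004 none. For each of 22180 genes the cluster with the highest mean was kept, without a filter on weak signals. Group means of all 15 arrays were fitted with limma 3.58.1 in R 4.3.3 (6 groups, 9 residual degrees of freedom), with the D2.A1 3D mean taken as the mean of its spindle and epithelial groups. Every adjusted p is a two-sided limma p with Benjamini-Hochberg adjustment over all 22180 genes, and called, passed, higher and lower mean an adjusted p under 0.05. The unprimed arrays thus enter the spread behind every primed p. The study gives an analysis of variance for primed against unprimed D2.OR nodules. A one-way test per gene was an alternative here, as were other samples in the fit, filters, priors, weights, blocks and scalings; D2.OR 3D nodule 2 alone and a fit of the 8 unprimed arrays alone were chosen after seeing the data. The fit was also run on simulated data with independent nodules and, for each gene, the same spread in all groups. That setting leaves out nodules that share a mouse and groups of unequal spread. It therefore cannot show that the p-values hold for these nodules. Gene order and promoters came from RefSeq's tables of GRCm38.p6.

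Named genes were the 15 called genes with the largest difference in either direction, or 10 for spindle nodules alone. For spindle against epithelial nodules, where none passed, they were the 5 largest with an unadjusted limma p under 0.01. Also named were list members that passed, Scgb1a1 from a list where none passed, and genes the study or earlier results single out. Gene models, small RNA and receptor gene families were counted only. Other genes named in the text, such as neighbours of Myc (Trib1, Pvt1, Tatdn1 and Zfp572), markers (Vim, Krt8, Epcam, Adipoq and Jchain), Postn, Col1a1, Axl, Mertk and Tyro3, were chosen after their values were seen. The members and the 37 lists (766 genes, 720 measured) were chosen with earlier results of these data known. The p-values rest on the spread among nodules, some of which share a mouse.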

Additional observations from a re-analysis of the deposited data

Results flagged for a closer look

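Pfkfb3, which makes the activator of phosphofructokinase, stood out because its line difference was not the same in primed and unprimed nodules. The difference of differences was 2.472 (SE 0.319, adjusted p = 0.0188 from limma), with -0.49 in primed and -2.97 in unprimed nodules. Sftpb, a surfactant protein, was apart for the same reason, at -5.717 (SE 0.748, adjusted p = 0.0188): it was -2.19 in primed nodules (adjusted p = 0.107) and 3.53 in unprimed nodules (adjusted p = 0.00346). Inmt, a methyltransferase of lung fibroblasts, gave -1.913 (SE 0.266, adjusted p = 0.0223), with -2.14 in primed and -0.23 in unprimed nodules.

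In 5 of 112 named genes, 1 of the 4 D2.A1 3D nodules lay far from the other 3, with a gap to the nearest, as a share of the group's range, above Dixon's critical value for 4 samples; chance alone marks about 1 group in 20. The shares were 0.953 for 4933412E24Rik (3.436, the others from 2.199 to 2.258), 0.924 for the autophagy gene Atg3 (3.046, the others from 2.425 to 2.472), 0.888 for Ank (7.084, the others from 6.921 to 6.940), 0.895 for the matrix protease Mmp9 (1.914, the others from 2.187 to 2.219) and 0.858 for the keratin Krt14 (1.678, the others from 1.774 to 1.790). All of the Ank values were above those of the D2.OR 3D nodules.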

How the results depend on the processing

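With all D2.A1 3D nodules the counts of higher and lower genes (43 and 56) were 20 and 28 in a fit of the 7 arrays alone, 26 and 29 with a replicate block, 15 and 6 with D2.A1 nodules of one number averaged, 122 and 122 after cyclic loess, 221 and 731 with array weights (D2.OR 3D nodule 1 weighed 3.115 and nodule 2 0.325), 113 and 245 at 2-fold and an unadjusted p under 0.05, and 0 and 0 by a one-way test per gene (627 and 921 at an unadjusted p under 0.05, lowest adjusted p 0.0782). For spindle nodules alone (23 and 38) loess gave 101 and 75, weights 163 and 471, the 2-fold threshold 131 and 344 and the one-way test 0 and 0 (810 and 715 at an unadjusted p under 0.05, lowest adjusted p 0.376); all transcript clusters gave 52 higher, and only genes above the median gene 69 lower. For epithelial nodules alone (31 and 14) the 7 arrays gave 16 and 8, loess 54 and 30 and weights 143 and 216; a trended, robust prior gave 16 higher, the replicate block 10 higher and genes above the median gene 24 lower. Spindle against epithelial D2.A1 3D nodules (0) gave 3 genes with all transcript clusters and 4 with the trended prior.

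Without single nodules the counts ran from 18 to 64 higher and 20 to 462 lower with all D2.A1 3D nodules, from 8 to 88 and 8 to 501 with spindle and from 3 to 45 and 1 to 168 with epithelial nodules, each largest without D2.OR 3D nodule 2. With nodule 2 as the only D2.OR 3D nodule, a setting chosen after seeing the data, they were 332 and 267, 147 and 192, and 391 and 213. The cause of these shifts was not tested. Over 69 called results of named genes and their alternatives, 858 of 1222 values kept the call, 364 lost it and 0 turned round. Of the results not called, Map1lc3b (-0.11) ran from -0.371 to 0.15 with single nodules left out, with 0.022 without D2.A1 3D spindle nodule 1 and 0.129 without D2.OR 3D nodule 3, and Gm19510 (0.11) ran from -0.053 to 0.281, with -0.005 without D2.A1 3D spindle nodule 2 and the lowest without D2.OR 3D nodule 3. With nodule 2 as the only D2.OR 3D nodule, differences that were not called turned round in Ager (0.185), Atg3 (0.408), Calr (1.174), Ccnd3 (0.037), Cxcl10 (0.157), Cxcl9 (0.729), Krt14 (0.182), Krt18 (0.118), Map1lc3b (0.343), Nlrc5 (0.332) and Gm19510 (-0.238), none of them called there. The deviations of same-numbered nodules from their group means correlated between -0.218 and 0.21. In a group of 2 nodules these deviations mirror each other, so this check cannot show whether a number marks a mouse. Genes near the median gene (1.94) can hide differences.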
